A study of Mus musculus with 21 samples.

Results

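Genes of creatine synthesis, creatine uptake and creatine kinase were followed in heart RNA from mice with and without doxorubicin (DOX) and with and without a subcutaneous tumor. The set holds 7 genes, *Gatm*, *Gamt*, *Slc6a8*, *Ckm*, *Ckb*, *Ckmt2* and *Ckmt1*, among 56691 in the table. Of these, 6 were above the minimum used for testing, a mean of 0.5 FPKM (counts per kb of exon length, scaled by the library total), and *Ckmt1* was below it. The set was chosen by the known roles of its genes and selected on the fall of *Gamt* counts from Control to DOX hearts, which earlier work on the same table had shown. *Gamt* is therefore described with no test wherever Control or DOX libraries enter, and is tested only between the tumor-bearing groups.

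Creatine is made in a pair of steps. *Gatm* encodes arginine:glycine amidinotransferase, which joins the amidino group of arginine to glycine and yields guanidinoacetate, and *Gamt* encodes the methyltransferase that turns guanidinoacetate into creatine with S-adenosylmethionine as methyl donor. Cardiomyocytes take up most of their creatine from the blood through the transporter encoded by *Slc6a8*, and creatine kinases pass high-energy phosphate between ATP and creatine, the mitochondrial form at the sites of ATP production and the cytosolic forms near myofibrils and ion pumps.

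The series compared hearts of mice without a tumor (Control, 5 libraries, and DOX, 5 libraries) and hearts of tumor-bearing mice (Tb, 6 libraries, and Tb-DOX, 5 libraries). The tumors were 4T1 cells, a murine breast cancer line, injected under the skin. DOX, an anthracycline, was given intraperitoneally once a week, and mice without DOX received normal saline. Strain, sex and age were not given in the sources used here, nor whether each library came from its own mouse, so p-values measure the spread between these samples, which may be technical.

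The labels name the 4T-1 line as the source of every library, while the study describes heart tissue. All 7 cardiomyocyte markers were present in every group, and *Myh6*, the atrial and ventricular myosin heavy chain of the adult mouse heart, averaged 3446 FPKM in Control, 4204 in DOX, 3011 in Tb and 4051 in Tb-DOX. The summed level of these markers was 49517 to 64969 CPM in Control and 68991 to 81261 in DOX, 43025 to 50994 in Tb and 56492 to 69840 in Tb-DOX, and no DOX or Tb-DOX library overlapped its own control group (CPM, the count scaled by library total and TMM, a factor that assumes most genes unchanged). Of the 7 markers, 3 passed as higher in DOX than in Control (*Myh6*, *Tnnt2* and *Pln*) and 2 in Tb-DOX than in Tb (*Myh6* and *Tnnt2*), while *Tnni3* stood at 0.13 in both comparisons on the log2 scale and *Ryr2* at -0.13 and -0.24. Total counts per library were 13521200 to 18601445. Control replicate 3 stood apart from the other Control libraries in *Ckm* and *Ckmt2*, and values that it moved by over 1.5 times are also given without it.

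Of the genes tested, 18.0% were higher and 18.2% lower in DOX than in Control, 2.18% higher and 2.54% lower in Tb-DOX than in Tb. "Passed the test" means an adjusted p under 0.05 over all 13990 genes in edgeR. Scaling by library totals shifted the all-gene median in DOX against Control to -0.135 on the log2 scale (1423 genes higher and 3526 lower, against 2523 and 2548 by TMM), and scaling to the cardiomyocyte markers moved it to -0.317 (660 higher and 5102 lower). In Tb-DOX against Tb, cardiomyocyte scaling moved that median to -0.274 (69 higher and 2153 lower, against 305 and 355), and leaving out 1 library moved the 660 genes called to between 260 (without Tb-DOX replicate 5) and 938 (without Tb replicate 6).

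*Gatm* and *Gamt*, the synthesis genes, were both low in Control hearts and lower in DOX hearts, and their promoters are shown as those of the synthesis pair. The mean CPM of *Ckb* and of *Ckm* was also lowest in DOX. They are the 300 bases from 250 before to 50 after the transcription start in RefSeq, build GRCm38.p6, on the minus strand: chr2:122611228-122611527 for *Gatm* and chr10:80260963-80261262 for *Gamt*. Capitals mark matches on either strand. The motifs searched were the E-box, with letters CANNTG. The GC box was searched as GGGCGG and the TATA box as TATAAA. The CCAAT box was searched by the letters of its name and the estrogen-related receptor half-site as AAGGTCA. The marked matches do not overlap in these windows.
*Gatm*: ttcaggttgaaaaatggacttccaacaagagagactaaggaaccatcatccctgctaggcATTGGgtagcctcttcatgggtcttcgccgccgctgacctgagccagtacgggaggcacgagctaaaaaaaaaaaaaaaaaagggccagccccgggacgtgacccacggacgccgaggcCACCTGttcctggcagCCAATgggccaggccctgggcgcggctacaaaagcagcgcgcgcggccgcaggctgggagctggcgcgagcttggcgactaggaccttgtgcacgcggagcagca
*Gamt*: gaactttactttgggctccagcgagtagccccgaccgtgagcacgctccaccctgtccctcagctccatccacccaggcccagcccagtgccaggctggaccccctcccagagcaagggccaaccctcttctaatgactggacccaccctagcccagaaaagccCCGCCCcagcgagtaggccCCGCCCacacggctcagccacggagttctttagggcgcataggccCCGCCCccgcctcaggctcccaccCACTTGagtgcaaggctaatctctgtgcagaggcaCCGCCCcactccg
The *Gatm* window holds 1 E-box and 2 CCAAT boxes, at positions -190 and -55 from the start, and no GC box. The *Gamt* window holds 4 GC boxes, at -86, -67, -22 and 38, and 1 E-box at 3. Over 32851 promoter windows of this length 72.3% held an E-box, 35.7% a GC box and 37.4% a CCAAT box, and the median GC content was 52.7%, against 60.7% in *Gatm* and 66.0% in *Gamt*. These matches describe the letters of the window and were not tested as sites.

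*Gatm* (ENSMUSG00000027199, chr2:122424948-122441784 in GRCm39, minus strand) fell with DOX in both states. Its Control libraries held 7.19, 9.12, 4.33, 5.93 and 8.33 CPM and its DOX libraries 2.90, 2.39, 1.39, 2.57 and 2.22 CPM. Every DOX library was below every Control library. The mean was 6.98 ± 1.91 CPM in Control and 2.29 ± 0.563 CPM in DOX (SD, n = 5 and 5), a log2 fold change of -1.60 (SE 0.213, edgeR adjusted p = 1.69e-05, exact permutation p = 0.00794, two-sided and the smallest that 5 against 5 libraries allow).

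In tumor-bearing mice *Gatm* was 6.87 CPM in the lowest Tb library, 9.0 at the median and 11 in the highest, and 4.19, 4.89, 3.82, 4.39 and 4.29 CPM in Tb-DOX. Again no library of one group overlapped the other. The mean went from 8.81 ± 1.65 to 4.31 ± 0.384 CPM (SD, n = 6 and 5), a log2 fold change of -1.03 (SE 0.194, edgeR adjusted p = 0.00498, exact permutation p = 0.00433). *Gatm* passed both tests in each of the 21 fits that left out 1 library, with log2 fold changes of -1.73 to -1.46 and of -1.08 to -0.95. Limma on log2(FPKM + 1) gave smaller values that also passed, -0.96 and -0.68 (adjusted p = 1.25e-05 and 0.00317).

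The fitted fall was larger without a tumor, but the difference of the log2 fold changes, 0.58 (SE 0.284), did not pass the test (edgeR adjusted p = 0.182, and 0.0544 unadjusted). Tb against Control gave 0.34 (SE 0.189, adjusted p = 0.316), and 0.21 without Control replicate 3. Tb-DOX hearts held more *Gatm* than DOX hearts, by 0.91 on the log2 scale (SE 0.214, edgeR adjusted p = 0.00544, exact permutation p = 0.00794), and these groups did not overlap either. With limma on log2(FPKM + 1) the 0.91 became 0.56 (adjusted p = 0.00324) and the 0.58 became 0.28 (adjusted p = 0.281). By mean level the order was Tb, Control, Tb-DOX, DOX, where Tb and Control overlapped and so did Control and Tb-DOX.

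*Gamt* (ENSMUSG00000020150, chr10:80093985-80096846, minus strand) was close to absent in DOX hearts. Its counts were 34, 47, 72, 32 and 57 in Control and 3, 1, 1, 2 and 2 in DOX. In tumor-bearing mice they were 10 in the lowest Tb library, 32.5 at the median and 51 in the highest, and 28, 11, 32, 12 and 14 in Tb-DOX. The DOX libraries lay below every library of the other 3 groups, while Tb and Tb-DOX overlapped.

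Mean *Gamt* levels were 3.13 ± 0.826 CPM in Control, 0.133 ± 0.0586 in DOX, 1.83 ± 1.01 in Tb and 1.21 ± 0.715 in Tb-DOX (SD, n = 5, 5, 6 and 5). Summed over libraries and scaled for depth, Control held 24.0 times the *Gamt* of DOX (242 against 9 counts, 95% counting interval 12.4 to 53.1) and Tb-DOX held 8.86 times (97 against 9 counts, 4.48 to 20). These intervals cover counting error only and leave out the spread between libraries. The Control and DOX counts of *Gamt* chose the set, so the ratios and intervals are a description and no test. With 1 to 3 counts per DOX library the fitted log2 fold change of -4.49 against Control depends on the prior count and is no bound, and limma on log2(FPKM + 1) gave -1.54.

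Between Tb-DOX and Tb, the comparison in which *Gamt* was tested, the log2 fold change was -0.60 (SE 0.393, 95% interval -1.37 to 0.17, edgeR adjusted p = 0.414, exact permutation p = 0.299). It ranged from -0.95 without Tb-DOX replicate 3 to -0.35 without Tb replicate 1. A difference was thus not detectable at this depth and spread. In order of mean level, *Gamt* ran Control, Tb, Tb-DOX, DOX, where Control, Tb and Tb-DOX each overlapped the other two and DOX lay below all of them.

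The FPKM ratio of *Gatm* to *Gamt*, which is per length, was 1.14 ± 0.401 in Control, 2.99 ± 1.63 in Tb and 2.24 ± 1.17 in Tb-DOX, and 8.90 ± 3.16 in DOX (SD). The lowest DOX library, at 6.69, was above the highest Tb library, at 5.89. This ratio uses the *Gamt* values that chose the set and is a description.

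**Figure D1:**
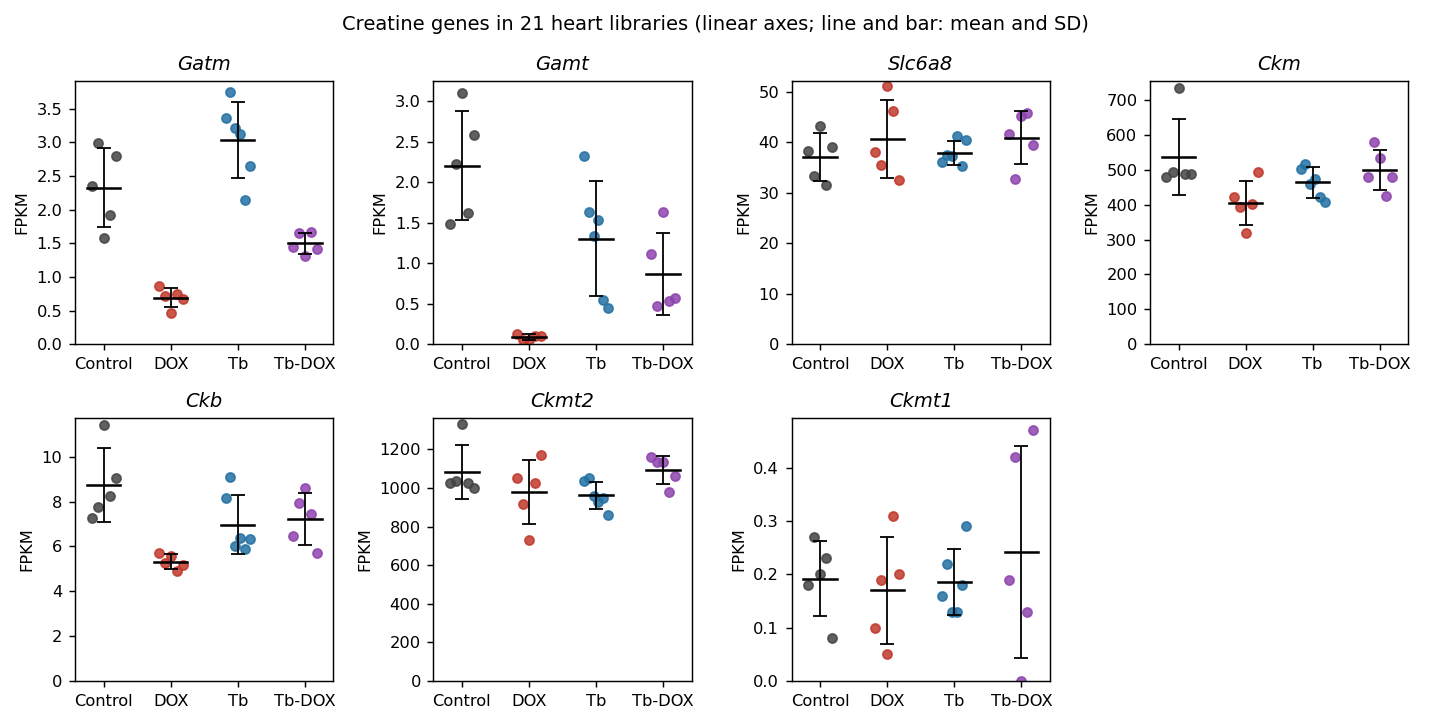
FPKM of each of the 7 genes (linear y axis from 0) in every library of Control, DOX, Tb and Tb-DOX, with 1 point per library and the mean and SD as line and bar. *Gatm* and *Gamt* are lowest in DOX, at 0.694 and 0.086 FPKM on average, while *Ckm* and *Ckmt2* overlap between all groups.

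Markers of other cell types are given beside *Gatm* and *Gamt*. The 5 erythroid markers summed to 203 to 793 CPM in Control and 4.71 to 132 in DOX, and to 368 to 828 in Tb and 2.40 to 28.8 in Tb-DOX, with all 5 markers lower after DOX in both states and none at 0 in a whole group (*Hbb-bs*, the most abundant, -3.41 and -5.49 on the log2 scale, edgeR adjusted p = 0.000815 and 0.000464). Of 7 fibroblast and matrix markers, a list added after values were seen, 5 were lower and 1, *Pdgfra*, higher in DOX than in Control, 4 were lower in Tb-DOX than in Tb, and their sum was 1228 to 1758 CPM in Control, 920 to 1442 in DOX, 1109 to 1411 in Tb and 809 to 1148 in Tb-DOX. *Dcn*, the most abundant of them, did not pass (0.30, adjusted p = 0.0779, in DOX against Control and 0.02, adjusted p = 0.945, in Tb-DOX against Tb). Of 7 endothelial markers, added likewise, 1 (*Tie1*) was lower in DOX and none of 7 passed in Tb-DOX against Tb, none was at 0 in a whole group, and *Pecam1*, the most abundant, stood at 0.37 (adjusted p = 0.0639) and -0.15 (adjusted p = 0.611). The part of these cells in the *Gatm* and *Gamt* values was not tested, and in bulk tissue fewer cells of a type and less RNA per cell cannot be told apart.

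Germ cell genes are listed because *Gamt* is also expressed in testis. Their summed level was 1.94 to 6.58 CPM in Control, 0 to 0.238 in DOX, 0 to 0.181 in Tb and 0 to 5.48 in Tb-DOX, with 7 of 9 at 0 in every DOX library, *Tnp1* among them, and 5 of 9 at 0 in every Tb library. *Gamt* was at 0.570 to 3.33 CPM in Tb and at 1.56 CPM in Tb-DOX replicate 1, where all 9 were at 0. Of 6 Sertoli and Leydig cell markers the sum was 4.10 to 5.85 CPM in Control, 2.01 to 4.33 in DOX, 3.13 to 5.69 in Tb and 3.28 to 6.54 in Tb-DOX, and both markers above the minimum, *Insl3* and *Rhox5*, were lower in DOX than in Control (*Insl3*, the most abundant, -0.80, SE 0.305, edgeR adjusted p = 0.0452). Hepatocyte markers, listed because liver is a main site of *Gamt* expression, summed to 0 to 0.456 CPM in Control, 1.78 to 3.57 in DOX, 0.0615 to 1.08 in Tb and 0.433 to 1.57 in Tb-DOX. Most of that sum in DOX was *Ttr*, at 1.63 FPKM on average in DOX against 0.128 in Control, 0.303 in Tb and 0.424 in Tb-DOX. It was the 1 of 4 above the minimum, and only through DOX, so no test of it is given. *Alb* held at most 4 counts in any library and *Apoa1* at most 3. *Serpina1a*, the remaining marker, held at most 4 counts in Control, 13 in DOX, 2 in Tb and 9 in Tb-DOX. Pancreatic acinar markers were at most 0.241 CPM in any library, adipocyte markers at most 1.66 and epithelial markers at most 4.04 (*Krt18*, the most abundant). The part of these cells was not tested.

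*Slc6a8*, the creatine transporter gene (ENSMUSG00000019558, chrX:72716756-72726108, plus strand), was far more abundant than the synthesis genes, with a mean of 39.1 FPKM over all libraries against 1.95 for *Gatm* and 1.12 for *Gamt*. It held 203.5, 176.5, 206.4, 168.5 and 202.0 CPM in Control and 219.7, 208.3, 263.8, 273.2 and 187.4 CPM in DOX. The groups overlapped, with 4 of 5 DOX libraries above all of Control. The log2 fold change of 0.27 (SE 0.101) passed the test narrowly (edgeR adjusted p = 0.0417, exact permutation p = 0.0714), and it was lost with library totals (0.13, adjusted p = 0.409), turned to -0.03 with cardiomyocyte scaling, and was lost without Control replicate 2, Control replicate 4, DOX replicate 3 or DOX replicate 4.

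In Tb *Slc6a8* lay between 184.6 and 200.7 CPM (median 188.4), and Tb-DOX libraries held 209.2, 166.3, 229.1, 209.2 and 206.1 CPM. Tb-DOX against Tb gave 0.10 (SE 0.0963, 95% interval -0.09 to 0.29, edgeR adjusted p = 0.614), a value that was -0.15 with cardiomyocyte scaling, 0.05 without Tb-DOX replicate 3 and 0.16 without Tb-DOX replicate 2. The FPKM of *Slc6a8* per *Gatm* was 17.0 ± 6.17 in Control and 62.5 ± 26.7 in DOX, and 12.9 ± 2.59 in Tb and 27.6 ± 5.27 in Tb-DOX (SD).

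The creatine kinase genes were unequal in level. *Ckmt2*, the sarcomeric mitochondrial kinase (ENSMUSG00000021622, chr13:92001506-92025004, minus strand), averaged 1027 FPKM over the 21 libraries, *Ckm*, the muscle cytosolic subunit (ENSMUSG00000030399, chr7:19138701-19156766, plus strand), 475.7 FPKM, and *Ckb*, the brain-type cytosolic subunit (ENSMUSG00000001270, chr12:111635795-111638772, minus strand), 7.07 FPKM. *Ckmt1*, the ubiquitous mitochondrial kinase (ENSMUSG00000000308, chr2:121188195-121194218, plus strand), averaged 0.197 FPKM, with 0 to 20 counts per library. *Ckm*, *Ckmt2* and *Ckmt1* each overlap a gene on the opposite strand (*A930016O22Rik*, *1700119I11Rik* and *Strc*, with mean counts of 120.7, 81.8 and 1.19), and without a stated strand setting such reads cannot be told apart.

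*Ckb* fell with DOX in hearts without a tumor, and its promoter is shown because it carries the TATA box letters that neither synthesis gene holds (GRCm38.p6, chr12:111672289-111672588, minus strand, marked as above).
*Ckb*: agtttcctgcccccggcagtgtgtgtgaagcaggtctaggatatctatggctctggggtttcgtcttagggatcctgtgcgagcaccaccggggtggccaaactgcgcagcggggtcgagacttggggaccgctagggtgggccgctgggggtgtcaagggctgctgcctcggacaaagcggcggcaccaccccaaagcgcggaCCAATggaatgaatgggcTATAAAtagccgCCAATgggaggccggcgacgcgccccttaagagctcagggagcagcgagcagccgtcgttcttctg
It holds 1 TATA box at -28 and CCAAT boxes at -46 and -16, with a GC content of 63.0%, and 13.6% of all windows held the TATA letters. Control libraries held 21.4, 22.8, 30.3, 24.6 and 26.0 CPM of *Ckb* and DOX libraries 18.2, 17.2, 16.0, 16.1 and 16.6 CPM. All DOX libraries were below all Control libraries. The mean went from 25 ± 3.42 to 16.9 ± 0.911 CPM (SD, n = 5 and 5), a log2 fold change of -0.57 (SE 0.139, edgeR adjusted p = 0.00316, exact permutation p = 0.00794), which passed in all 21 fits without 1 library (-0.62 to -0.49).

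With a tumor *Ckb* lay between 16.1 and 25.7 CPM in Tb (median 17.8) and at 18.1, 22.5, 24.3, 18.9 and 16.6 CPM in Tb-DOX. The 2 groups overlapped throughout. The log2 fold change was 0.04 (SE 0.132, 95% interval -0.22 to 0.30, edgeR adjusted p = 0.902), a sign that turned with cardiomyocyte scaling (-0.20). The difference between the states, 0.61 (SE 0.192), was at the limit of the test (edgeR adjusted p = 0.0494), and it no longer passed in 16 of 21 fits without 1 library, where adjusted p ran from 0.0236 without Tb replicate 2 to 0.0962 without Tb-DOX replicate 3. Tb against Control gave -0.36 (SE 0.132, edgeR adjusted p = 0.121, exact permutation p = 0.0476, unadjusted), a value that passed edgeR's test without Tb replicate 2 only (adjusted p = 0.0345), and Tb-DOX against DOX gave 0.25 (SE 0.139, adjusted p = 0.219). That value was 0.16 without Tb-DOX replicate 3, and it passed with library totals (0.44, adjusted p = 0.0377), cardiomyocyte scaling (0.47, 0.0376) and limma at both pseudocounts (0.42, 0.0373 and 0.37, 0.0413).

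*Ckm* held 1421, 1465, 1956, 1462 and 1411 CPM in Control and 1360, 1289, 919, 1332 and 1597 CPM in DOX. The ranges overlapped through DOX replicate 5. The log2 fold change of -0.25 (SE 0.137, 95% interval -0.52 to 0.02) did not pass the test (edgeR adjusted p = 0.162), but it did with library totals (-0.40, adjusted p = 0.0158), with limma on log2(FPKM + 1) (-0.40, adjusted p = 0.0183) and with cardiomyocyte scaling (-0.59, adjusted p = 2.87e-05), and stood at -0.14 without Control replicate 3 and also without DOX replicate 3. In Tb it lay between 1038 and 1470 CPM (median 1306) and in Tb-DOX at 1347, 1653, 1512, 1088 and 1405 CPM, a log2 fold change of 0.10 (SE 0.131, adjusted p = 0.724) that was -0.16 with cardiomyocyte scaling, 0.03 without Tb-DOX replicate 2 and 0.18 without Tb-DOX replicate 4. Skeletal muscle markers, whose fibers also express *Ckm*, summed to 2.63 to 27.0 CPM in Control, 9.90 to 28.5 in DOX, 2.95 to 27.0 in Tb and 3.03 to 9.11 in Tb-DOX, with 1 of 6 tested higher in DOX than in Control (*Mylpf*) and *Tnnt3*, the most abundant, at 1.44 (adjusted p = 0.0972). Of these 6, *Myh4*, *Atp2a1* and *Pvalb* were above the minimum only through DOX (1.27, 0.896 and 0.918 FPKM on average), so the number tested depends on DOX itself. Smooth muscle markers, whose cells express *Ckb*, summed to 323 to 377 CPM in Control, 192.7 to 372 in DOX, 206.2 to 381.5 in Tb and 211.6 to 266 in Tb-DOX, with 1 of 5 lower in DOX (*Smtn*) and *Acta2*, the most abundant, at -0.10 (adjusted p = 0.791). Their part in these values was not tested.

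*Ckmt2* held 1552, 1567, 1815, 1567 and 1476 CPM in Control and 1736, 1540, 1073, 1730 and 1926 CPM in DOX. The DOX libraries ran from below the lowest to above the highest Control library. The log2 fold change was 0.01 (SE 0.126, 95% interval -0.24 to 0.25, edgeR adjusted p = 0.979), a sign that turned with library totals (-0.15) and with cardiomyocyte scaling (-0.34, adjusted p = 0.00191). Tb libraries lay between 1122 and 1531 CPM (median 1431) and Tb-DOX libraries at 1665, 1648, 1641, 1275 and 1585 CPM, a log2 fold change of 0.17 (SE 0.121, adjusted p = 0.456) that was -0.08 with cardiomyocyte scaling. *Ckmt1* was not tested and averaged 0.192 FPKM in Control, 0.170 in DOX, 0.185 in Tb and 0.242 in Tb-DOX, with overlap between all groups.

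**Figure D2:**
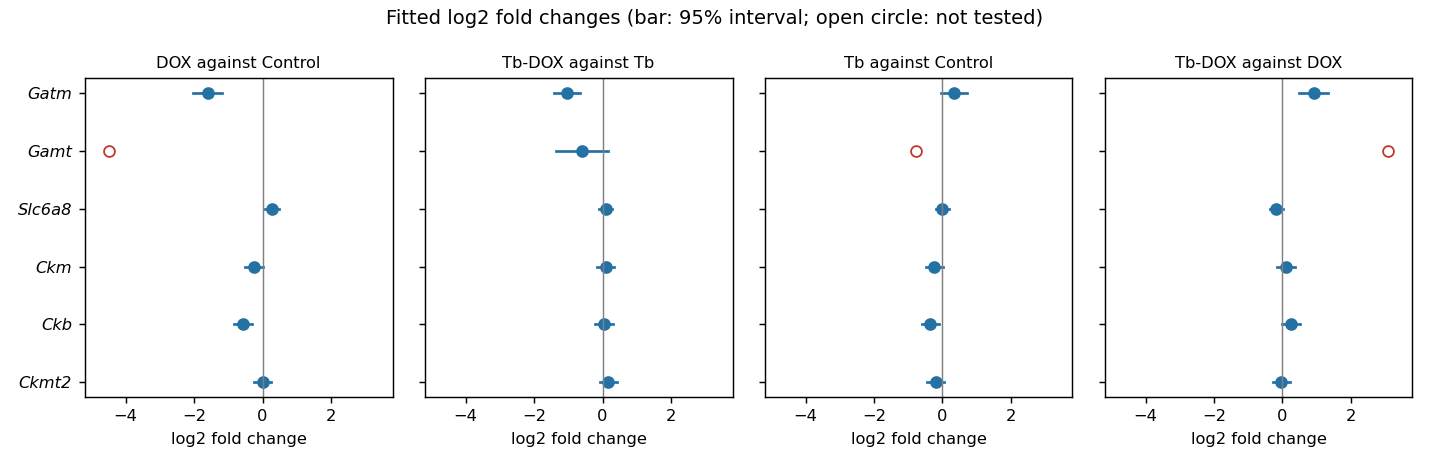
Fitted log2 fold changes of the 6 genes above the minimum (x axis) in 4 comparisons, with 95% intervals as bars and open circles where *Gamt* is given with no test. *Gatm* lies below 0 with DOX in both states (-1.60 and -1.03) and *Ckb* without a tumor (-0.57, against 0.04 with one), where 0.04 became -0.20 with cardiomyocyte scaling. The 0.27 of *Slc6a8* and 0.01 of *Ckmt2* in DOX against Control likewise became -0.03 and -0.34.

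Per length, *Ckmt2* made up 66.7% ± 1.47 of the FPKM of the 4 creatine kinase genes in Control, 70.4% ± 0.975 in DOX, 67.2% ± 0.982 in Tb and 68.4% ± 1.76 in Tb-DOX (SD, n = 5, 5, 6 and 5). *Ckm* made up 32.7% ± 1.45, 29.2% ± 0.929, 32.3% ± 0.961 and 31.2% ± 1.74 in the same order. All DOX libraries, at 28.1% to 30.2%, were below all Control libraries, at 31.7% to 35.3%, while Tb and Tb-DOX overlapped. *Ckb* made up 0.536%, 0.394%, 0.484% and 0.453% on average, and *Ckmt1* no more than 0.0304% in any library. By counts, which are not per length, *Ckm* made up 48.6% in Control, 44.6% in DOX, 48.2% in Tb and 46.8% in Tb-DOX, *Ckmt2* 50.6%, 54.8%, 51.1% and 52.5%, and *Ckb* 0.791%, 0.597%, 0.717% and 0.677%. These shares need no scaling between libraries and were not tested.

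The ratio of *Ckm* to *Ckmt2* FPKM was 0.491 ± 0.0334 in Control and 0.416 ± 0.0189 in DOX, and 0.481 ± 0.0212 in Tb and 0.456 ± 0.0375 in Tb-DOX (SD). Over the 21 libraries *Ckm* and *Ckmt2* had a Pearson correlation of 0.850 (0.923 after the group means were removed), and *Gatm* and *Gamt* one of 0.769 (0.259 after the group means were removed). Within groups the first pair varied together, and the second did so less closely. The libraries share depth and scaling, and these correlations are descriptions.

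**Figure D3:**
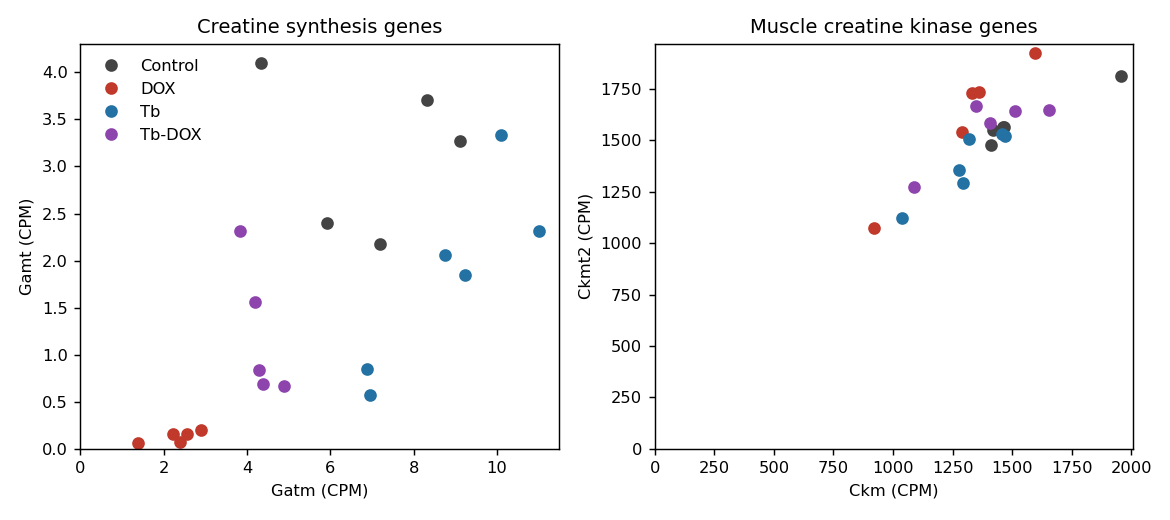
Levels in CPM of *Gatm* (x axis) against *Gamt* (y axis) on the left and of *Ckm* against *Ckmt2* on the right, with 1 point per library and colors for the groups. The DOX libraries sit in the lower left corner of the left panel (at most 2.90 and 0.202 CPM), and in the right panel *Ckm* per *Ckmt2* by FPKM was 0.393 to 0.437 in DOX, below Control (0.467 to 0.55) and Tb (0.446 to 0.51) and overlapping Tb-DOX (0.413 to 0.512).

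In counts, 3 of 5 genes passed the test in DOX against Control (*Gatm* and *Ckb* lower, *Slc6a8* higher), where 18.0% of all genes were higher and 18.2% lower. In Tb-DOX against Tb it was 1 of 6 (*Gatm*, lower), against 2.18% of all genes higher and 2.54% lower. The interaction of DOX and tumor passed in 1 of 5 (*Ckb*, higher, against 3.95% of all genes higher and 5.0% lower). In Tb against Control 0 of 5 passed in edgeR (1 at an unadjusted p under 0.05 and 0 by DESeq2), against 5.0% of all genes higher and 1.29% lower. In Tb-DOX against DOX 1 of 5 passed (*Gatm*, higher), against 9.52% of all genes higher and 7.93% lower. The split of all genes moved with the scaling: with library totals 902 were higher and 283 lower in the interaction (552 and 699 by TMM) and 2512 higher and 323 lower in Tb-DOX against DOX (1332 and 1110), and with cardiomyocyte scaling 767 were higher and 24 lower in Tb against Control (699 and 180). *Slc6a8*, *Ckm* and *Ckmt2* stood at -0.01, -0.24 and -0.20 on the log2 scale in Tb against Control and at -0.18, 0.11 and -0.03 in Tb-DOX against DOX, where those of *Slc6a8* and *Ckmt2* became 0.02 and 0.20 with cardiomyocyte scaling. The -0.01 of *Slc6a8* became 0.14. In Tb against Control the exact permutation p, unadjusted, was 0.0563 for *Ckm* and 0.039 for *Ckmt2*, whose edgeR adjusted p were 0.304 and 0.35, and the groups overlapped. The -0.24 of *Ckm* became -0.13 without Control replicate 3 and its 0.11 became 0.01 without DOX replicate 3, and the -0.03 of *Ckmt2* became -0.15 without DOX replicate 3. The -0.18 of *Slc6a8* became -0.11 without Tb-DOX replicate 2. Comparisons that use the same libraries are not independent of each other.

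The genes whose pattern was most like each member, by Pearson correlation of log2(CPM + 0.5) over the 21 libraries, differed between the synthesis and kinase genes. For *Gatm* they were *Ptgfrn* (0.956, and 0.690 after the group means were removed), *Igfbp7* (0.928, and 0.487) and *Marcks* (0.922, and 0.457). For *Gamt* they were *Kcnj14* (0.930, and 0.660 after the group means were removed), *Pcdh12* (0.918, and 0.726) and *Mxra7* (0.915, and 0.658). For *Ckmt2* they were *Mdh2*, the mitochondrial malate dehydrogenase gene (0.932, and 0.95 after the group means were removed), and the respiratory chain genes *Cyc1* (0.921, and 0.931) and *Uqcrc1* (0.916, and 0.920). For *Ckm* they were *Gm10039* (0.948, and 0.970 after the group means were removed), *Ndufab1* (0.929, and 0.916) and *Pgam2*, the muscle phosphoglycerate mutase gene (0.926, and 0.907). For *Ckb* they were *Lmf1* (0.846, and 0.671), *Cox4i2* (0.841, and 0.687) and *Casq1* (0.826, and 0.748). For *Slc6a8* they were *Ppip5k1* (0.824, and 0.717), *Psma7* (0.821, and 0.731) and *4930431P19Rik* (0.815, and 0.783). For *Ckmt1*, at very low counts, they were *ENSMUSG00000120521* (0.680, and 0.813), *Ldhb-ps* (0.671, and 0.783) and *Gnb5* (0.651, and 0.660).

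All-gene shares for the counts of each list below were 18.0% higher and 18.2% lower in DOX against Control. In Tb-DOX against Tb they were 2.18% and 2.54%. With cardiomyocyte scaling 660 of 13990 genes were higher and 5102 lower in DOX against Control, and 69 and 2153 in Tb-DOX against Tb. No list was tested against these shares. Of 11 tested genes of methyl group supply, 3 rose and 3 fell in DOX against Control (median 0.05 on the log2 scale, 0.00 over all genes), which became 2 and 3 with library totals (median -0.09) and 1 and 4 with cardiomyocyte scaling (median -0.27). *Gnmt*, which uses S-adenosylmethionine to methylate glycine, rose by 2.45 (SE 0.349, edgeR adjusted p = 3.02e-05), from 1.00 ± 0.456 to 4.99 ± 1.45 FPKM (SD, n = 5 and 5). *Nnmt*, which methylates nicotinamide, fell (-1.37, SE 0.398, adjusted p = 0.0105). *Mat2a*, which makes S-adenosylmethionine and was the most abundant, stood at -0.05 (adjusted p = 0.740). In Tb-DOX against Tb 0 of 11 passed in edgeR (2 at an unadjusted p under 0.05 and 1, *Gnmt*, by DESeq2, and 1 lower with cardiomyocyte scaling, median -0.29 in place of -0.03), and *Gnmt* stood at 0.98 (adjusted p = 0.0782).

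Of 14 tested genes of arginine, glycine and ornithine supply, 2 rose and 4 fell in DOX against Control (median 0.11, which was -0.02 with library totals), and 1 rose and 6 fell with cardiomyocyte scaling (median -0.21). Among those that fell, *Slc7a2* was above the minimum only through Control (0.656 FPKM on average, against 0.368 in DOX), so its pass is no support. *Slc7a1*, a carrier of cationic amino acids, rose by 1.31 (SE 0.223, edgeR adjusted p = 1.57e-04), from 2.93 ± 0.510 to 6.55 ± 1.58 FPKM. *Ddah1*, which breaks down methylated arginine, fell in both states (-1.62, SE 0.256, adjusted p = 8.33e-05, and -0.99, SE 0.242, adjusted p = 0.0225) and was the 1 gene of 14 that passed in Tb-DOX against Tb, where 4 were lower with cardiomyocyte scaling (median -0.38 in place of -0.14). *Oat*, which converts ornithine and was the most abundant, stood at 0.09 (adjusted p = 0.351).

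Of 12 tested adenylate kinase and nucleotide exchange genes, 6 rose and 2 fell in DOX against Control, a split that became 3 and 3 with library totals and 1 and 4 with cardiomyocyte scaling. *Slc25a4*, the heart ADP/ATP carrier, rose by 0.78 (SE 0.106, edgeR adjusted p = 2.10e-05), from 1145 ± 231 to 1770 ± 110 FPKM, and in Tb-DOX against Tb by 0.54 (SE 0.10, adjusted p = 0.00436). *Ak4*, a mitochondrial adenylate kinase, fell without a tumor (-1.07, SE 0.234, adjusted p = 0.00138) and stood at -0.70 with one (adjusted p = 0.0738). With a tumor 2 of 12 rose, *Slc25a4* and *Slc25a5*, and 0 fell in edgeR (4 of 12 passed by DESeq2, *Ak4* and *Vdac2* added), against 1 higher and 2 lower with cardiomyocyte scaling (median -0.21 in place of 0.05).

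Of 7 subunits of the AMP-activated kinase, 2 were higher and 0 lower in DOX than in Control, against 1 and 2 with library totals and 1 and 3 with cardiomyocyte scaling. The 2 higher by TMM were *Prkab1* and *Prkag1* (the most abundant, 0.31, SE 0.105, edgeR adjusted p = 0.0268, which was -0.01 with cardiomyocyte scaling), and 0 of 7 passed with a tumor in edgeR (2 at an unadjusted p under 0.05 and 0 by DESeq2), against 2 lower with cardiomyocyte scaling (median -0.27 in place of -0.01). Of 12 regulators of creatine kinase genes 2 were higher, *Mef2a* and *Myocd*, and 0 lower, against 1 and 3 both with library totals and with cardiomyocyte scaling (*Mef2a* 0.37, and 0.04 with cardiomyocyte scaling). *Myocd*, the gene of the cardiac coactivator myocardin, rose by 1.42 (SE 0.128, adjusted p = 4.35e-07) and with a tumor by 0.65 (SE 0.121, adjusted p = 0.00461), where it was the 1 of 12 that passed, against 1 higher and 2 lower with cardiomyocyte scaling (median -0.13 in place of 0.13). *Ppargc1a*, a coactivator of mitochondrial genes and the most abundant of the list, stood at 0.79 and 0.58 (adjusted p = 0.0702 and 0.320).

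Of 11 tested p53 targets 3 rose and 1 fell in DOX against Control, against 2 and 1 with library totals and 2 and 2 with cardiomyocyte scaling. *Cdkn1a*, a cell cycle inhibitor gene, rose by 2.65 (SE 0.640, edgeR adjusted p = 0.00293) and *Trp53inp1* by 2.18 (SE 0.462, adjusted p = 0.00107), while *Ccng1*, the most abundant, fell (-0.58, SE 0.188, adjusted p = 0.0207). In Tb-DOX against Tb 0 of 11 passed in edgeR (0 at an unadjusted p under 0.05, 0 by DESeq2 and 0 with cardiomyocyte scaling, median -0.20 in place of 0.04).

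**Figure D4:**
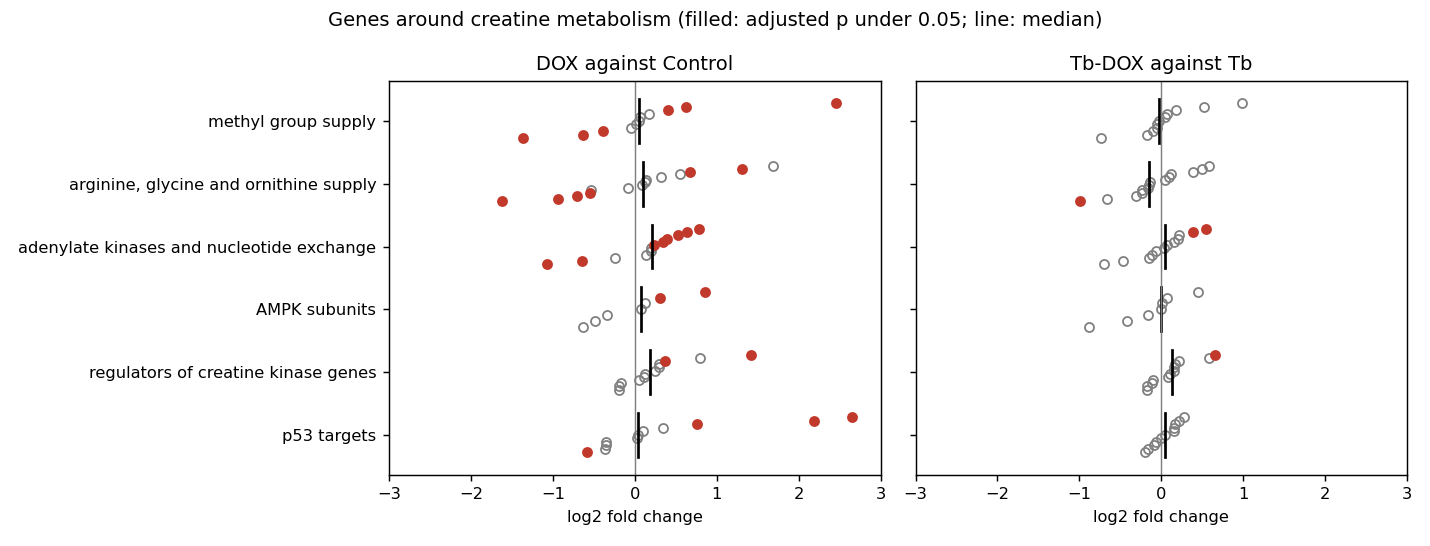
Log2 fold change (x axis) of every tested gene in the 6 pathway lists, for DOX against Control on the left and Tb-DOX against Tb on the right, with filled points for an edgeR adjusted p under 0.05 and a line at the median. Without a tumor each list holds filled points (2 to 8 per list), and with a tumor 3 of 6 lists hold none, which was 1 of 6 (p53 targets) with cardiomyocyte scaling; the medians of the nucleotide exchange and regulator lists, 0.22 and 0.18 on the left, became -0.11 and -0.13 with cardiomyocyte scaling.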

How the data were processed

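Heart RNA libraries were grouped, and their replicate numbers taken, from the sample labels. The authors enriched mRNA with oligo(dT) beads by their methods (the labels also allow rRNA depletion) and sequenced on an Illumina platform. The submitters' processing notes name cutadapt, FastQC, HISAT2, HTSeq 0.6.1, DESeq2 1.34.0 and build GRCm39, without order, and the strand setting was not given in the sources used here. For each gene, the table the authors deposited gives raw counts and FPKM in all 21 libraries. The deposited FPKM equals, within 0.01, the count per kb and library total for 100.0% of entries. Coordinates are those of the table.

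The members and the gene lists were chosen with earlier results of these data known. Counts were fitted with edgeR 4.0.16 in R 4.3.3 (TMM scaling, quasi-likelihood F tests, all 4 groups in 1 fit) over the 13990 genes whose FPKM averaged 0.5 or more, with Benjamini-Hochberg adjustment over all of them. TMM and the filter set which genes could pass, and SEs were derived from the F statistics, with 95% intervals by the normal approximation. Single genes were also tested by a two-sided exact permutation of log2(CPM + 0.5) in 252 or 462 arrangements (smallest p 0.00794 and 0.00216). Replicates differed beyond counting error (chi-square per degree of freedom of at least 6.07). Genes named were the 7 members, the 3 genes most like each, the most abundant gene of each list with a gene above the minimum, and pathway list genes that passed with a change of 1 or more on the log2 scale in either DOX comparison (at most the 5 largest per list); other names were chosen after values were seen. The fibroblast and endothelial lists were added after values were seen. Alternatives were other scalings, filters, limma 3.58.1 on log2 FPKM, DESeq2 1.42.0, fewer groups, robust moderation, the replicate number as a block and leaving out each library. *Gamt* has no test where Control or DOX libraries, which chose it, enter. The edgeR fit was run on simulated counts for DOX against Control and Tb-DOX against Tb, and the other steps were not tested in this way. Promoters are RefSeq sequence (GRCm38.p6), matched by symbol for 6 of 7 members, and no coordinates were converted between builds.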

Additional observations from a re-analysis of the deposited data

Results flagged for a closer look

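In 3 of 28 pairs of member and group, 1 library stood far from the rest of its group by Dixon's test, which flags about 5% of groups by chance. Control replicate 3 held 1956 CPM of *Ckm*, with the other Control libraries at 1411.0 to 1465 CPM, and 1815 CPM of *Ckmt2*, with the others at 1476 to 1567 CPM. Tb-DOX replicate 4 held 1275 CPM of *Ckmt2*, with the others at 1585 to 1665 CPM.

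The log2 fold change of *Ckb* with DOX was 0.61 higher in mice with a tumor than in mice without one, at the limit of the edgeR interaction test (adjusted p = 0.0494). It no longer passed in 16 of 21 fits without 1 library, nor with median-ratio scaling (0.59, adjusted p = 0.0509), robust moderation (0.61, 0.0502), no filter (0.59, 0.0909), cardiomyocyte scaling (0.69, 0.0673) or the replicate block (0.56, 0.0983). It passed with DESeq2 (0.59, adjusted p = 0.0296), library totals (0.77, 0.0267), an FPKM minimum of 5 (0.67, 0.0332) and limma at both pseudocounts (0.75, 0.0283 and 0.66, 0.0292).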

How the results depend on the processing

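In DOX against Control 3 members passed. The count was 1 when an average FPKM of 5 was required, where *Gatm* is not tested and *Slc6a8* did not pass (adjusted p = 0.0737), 1 with a minimum absolute log2 fold change of 1, and 2 to 3 when each library was left out in turn. It was 2 with no filter and with the groups compared alone (*Slc6a8* lost, adjusted p = 0.0874 and 0.0816), 4 with cardiomyocyte scaling (*Gatm*, *Ckm*, *Ckb* and *Ckmt2*), and 3 with library totals and limma, where *Ckm* stood in place of *Slc6a8*. In Tb-DOX against Tb it was 1, and 0 at that higher FPKM minimum. In the interaction it was 1, and 0 with median-ratio scaling, cardiomyocyte scaling, no filter, robust moderation or the minimum log2 fold change, and 0 to 1 without single libraries. In Tb against Control it was 0, and 0 to 1 without single libraries. In Tb-DOX against DOX it was 1, and 2 with library totals and with limma at either pseudocount (*Ckb* added), 3 with cardiomyocyte scaling (*Ckb* and *Ckm* added), 0 at the higher FPKM minimum and 0 with the minimum log2 fold change. Over all genes, cardiomyocyte scaling called 2409 higher and 206 lower in Tb-DOX against DOX. The cause of these moves, where not named, was not tested.

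Cardiomyocyte scaling reversed these log2 fold changes: in DOX against Control *Slc6a8* (-0.03) and *Ckmt2* (-0.34), in Tb-DOX against Tb *Slc6a8* (-0.15), *Ckm* (-0.16), *Ckb* (-0.20) and *Ckmt2* (-0.08), in Tb against Control *Slc6a8* (0.14), and in Tb-DOX against DOX *Slc6a8* (0.02) and *Ckmt2* (0.20). Library totals reversed *Ckmt2* in DOX against Control (-0.15), *Slc6a8* in Tb against Control (0.03), and *Slc6a8* (0.01) and *Ckmt2* (0.16) in Tb-DOX against DOX. Limma at both pseudocounts reversed the same 4 (-0.16, 0.04, 0.02 and 0.17), and the higher FPKM minimum reversed *Ckmt2* in DOX against Control (-0.04) and in Tb-DOX against DOX (0.03). *Slc6a8* in Tb against Control, at -0.01, also became 0.00 with median-ratio scaling, no filter and DESeq2, and 0.02 with the groups compared alone. Without single libraries, values near 0 changed sign for *Ckmt2* in DOX against Control (-0.06 to 0.13) and Tb-DOX against DOX (-0.15 to 0.03), *Ckb* in Tb-DOX against Tb (-0.04 to 0.13) and *Slc6a8* in Tb against Control (-0.05 to 0.03). None of these passed the test in the fit reported except *Slc6a8* in DOX against Control.

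Same-numbered libraries correlated at -0.261 to 0.234 after group means were removed. These values cannot decide whether the numbers pair the samples, since differently numbered libraries were not compared. With the replicate number as a block, 0 members passed the interaction (*Ckb* 0.56, adjusted p = 0.0983), the values near 0 of *Ckmt2* in DOX against Control (-0.01), *Ckb* in Tb-DOX against Tb (-0.01) and *Slc6a8* in Tb against Control (0.01) changed sign, and no other member's call changed. Over all genes the block called 506 in the interaction in place of 1251 and 469 in Tb against Control in place of 879. Tb-DOX against Tb called 660 genes, and 2222 with cardiomyocyte scaling, 351 with those 2 groups alone, 1043 with DESeq2 and 420 with limma at a pseudocount of 0.1. With the higher FPKM minimum, where fewer genes are tested, 2496 in place of 5071 were called in DOX against Control, 334 in Tb against Control, 551 in the interaction and 948 in place of 2442 in Tb-DOX against DOX. The interaction called 540 with cardiomyocyte scaling and 1987 with DESeq2. Leaving out 1 library moved the 660 of Tb-DOX against Tb to between 260 and 938, with at most 415 left without Tb replicate 1, 2 or 3 or Tb-DOX replicate 1, 2, 3 or 5, and the 1251 of the interaction to between 657 and 1721 (without DOX replicate 5), with at most 822 left without Control replicate 2, 4 or 5, DOX replicate 3 or 4, or Tb-DOX replicate 1 or 3. Shares of the creatine kinase genes by counts in place of FPKM are given beside those by FPKM. Depth limits *Gamt* in DOX, at 1 to 3 counts, and *Ckmt1* everywhere.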
